A study of Macaca mulatta with 5 samples.

Results

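The cells described here are the vascular cells of the fetal rhesus macaque kidney, meaning every cell that the authors placed in 1 of 5 clusters named Endothelial cell (c1), Endothelial cell (c2), Endothelial cell (c3), Stromal-Microvascular (c4) and Endothelial (c5). They numbered 296 of the 36039 cells in 5 libraries. Members were chosen by the authors' cluster name, and no measured value was used beyond those that gave the clusters. Single-cell RNA sequencing had been carried out on cortex-enriched kidney cells from fetuses in the late second or the third trimester, when the macaque kidney is still forming nephrons. Libraries 600 and 628 came from cortex dissected by hand from 2 donor kidneys and digested with enzymes active in the cold (the dissected group). Libraries 623, 627 and 632 came from kidneys vortexed in a cold mix named for the bacterium Bacillus licheniformis, which releases mainly cortical cells (the vortexed group). No treatment or genotype was given for any of them. Fetal age, sex and batch per library were not given, and each of them, like the donor, cannot be told apart from the preparation.

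Endothelial cells line every blood vessel of the kidney. In the glomerulus they form a fenestrated capillary tuft that faces the podocytes across the filtration barrier, and around the tubules they form the peritubular capillaries that take back filtered water and solutes. While nephrons form, podocytes secrete vascular endothelial growth factor, which draws endothelial cells that carry its receptor KDR into the young glomerulus. Pericytes and mesangial cells, the stromal companions of these microvessels, wrap the capillaries from outside. Endothelium is commonly recognised by PECAM1 and CDH5, which join neighbouring endothelial cells, by KDR and by PLVAP, which forms the diaphragms of capillary fenestrae. The deposited table has 0 columns for these 4 genes or any other, so the endothelial names could not be checked against markers, and they are used as the authors gave them. Depth per cell is unknown.

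The libraries held between 2553 and 10502 cells, and 143 cell barcodes occurred in more than 1 library, with 5 vascular cells among those that carried one. No cell identifier was repeated among the libraries. The labels do not say whether each library is a different fetus, and p-values here refer to the spread over these 5 libraries only, some of which could be technical. Binomial intervals given below are exact (Clopper-Pearson) at 95% and cover counting error only. In dissociated tissue, fewer cells of a type and poorer release of that type cannot be told apart.

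Vascular cells were rare in all 5 libraries and most frequent in the dissected pair. Library 600 held 131 vascular cells among 6839, a share of 1.92% (1.60 to 2.27), and library 628 held 67 among 6329, or 1.06% (0.821 to 1.34). Of the vortexed libraries, 623 held 41 (0.418%, 0.300 to 0.566), 627 held 49 (0.467%, 0.345 to 0.616) and 632 held 8 (0.313%, 0.135 to 0.616). Both dissected values lay above all 3 vortexed values, and the 3 vortexed intervals overlapped one another. Library 600 supplied 44.3% of the vascular cells but 19.0% of all cells. The mean share was 1.49% ± 0.606 (SD, n = 2) in the dissected and 0.399% ± 0.0783 (SD, n = 3) in the vortexed libraries, a difference of 1.09 percentage points. An exact two-sided permutation test over the 10 ways of choosing 2 of 5 libraries gave p = 0.1, the smallest this design allows (Benjamini-Hochberg adjusted p = 0.225 over the 9 comparisons of this kind made here). The difference was 0.659 points without library 600.

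The 4 clusters with an endothelial name held 217 of the 296 cells. Their share of a library ranged from 0.274% in library 632 to 1.16% in library 600, and the groups again did not overlap (exact permutation p = 0.1, adjusted p = 0.225). Library 628, with 0.806% (0.601 to 1.06), lay above the vortexed libraries, which reached 0.438% in library 627.

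**Figure D1:**
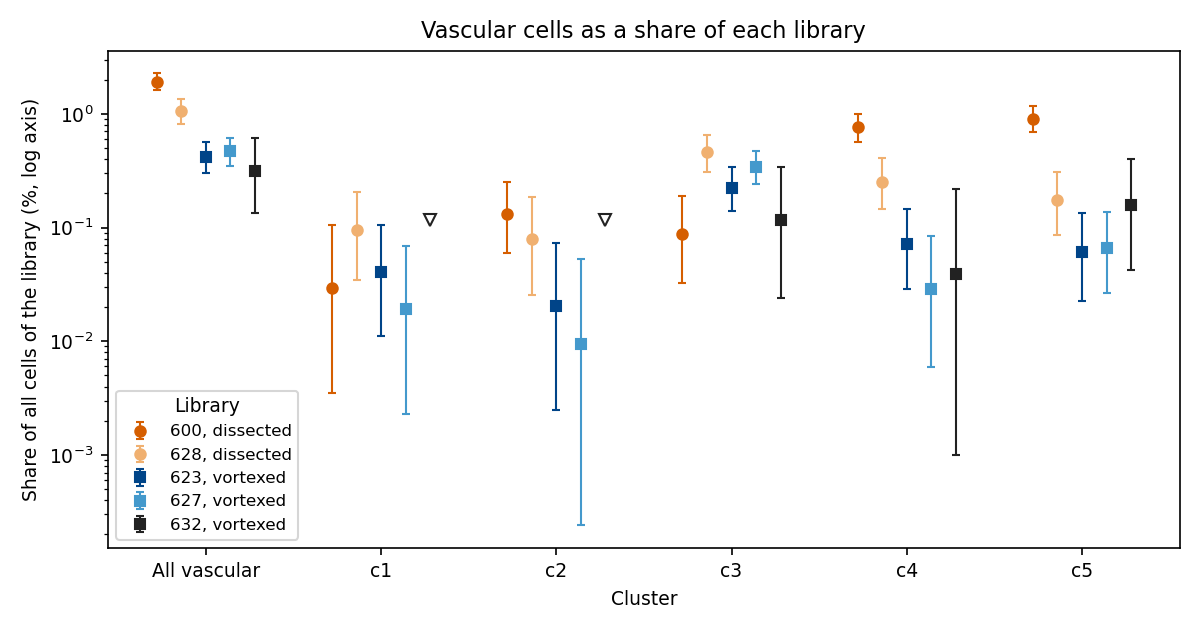
Share of all cells of each library (percent, log axis) for all vascular cells and for each cluster; circles are dissected and squares vortexed libraries, bars are exact 95% binomial intervals, and open triangles mark a count of 0 at the share that 3 cells would give. Both dissected libraries lie above the vortexed ones for all vascular cells, c4 and c5, while c1 and c3 overlap. The gap is narrow for c5 (0.174% in library 628 against 0.157% in library 632). For c2 they lie above the vortexed libraries that held c2 cells. The c2 triangle of library 632 (0.118%) lies above library 628 (0.0790%).

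By cluster, the 5 names differed in size and in the libraries that supplied them. Endothelial cell (c3) was the largest with 96 cells, followed by Endothelial (c5) with 90 and Stromal-Microvascular (c4) with 79. Endothelial cell (c2) held 17 cells and Endothelial cell (c1) 14, the 2 smallest of all 37 clusters in these libraries. The names do not say which vessel each cluster stands for.

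Stromal-Microvascular (c4), whose name joins stroma with small vessels, numbered 52 cells in library 600, 16 in library 628, 7 in library 623, 3 in library 627 and 1 in library 632. As shares of all cells these were 0.760%, 0.253%, 0.0713%, 0.0286% and 0.0392%. The dissected libraries stood above the vortexed ones without overlap, and they differed from each other by more than their counting intervals (0.568 to 0.996 in library 600 against 0.145 to 0.410 in library 628).

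Endothelial (c5) numbered 62, 11, 6, 7 and 4 cells in libraries 600, 628, 623, 627 and 632. The shares of all cells were 0.907%, 0.174%, 0.0611%, 0.0667% and 0.157%, in the same order. Library 600 stood far above the other 4, of which 628 and 632 were close to each other. It supplied 68.9% of all c5 cells.

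Endothelial cell (c3) showed another order. It numbered 6, 29, 22, 36 and 3 cells in libraries 600, 628, 623, 627 and 632, or 0.0877%, 0.458%, 0.224%, 0.343% and 0.118% of all cells. The lowest share was in library 600, which had the highest share of c4 and c5, and the dissected and vortexed libraries overlapped.

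The 2 small clusters were found in 4 of 5 libraries each. Endothelial cell (c2) numbered 9, 5, 2 and 1 cells in libraries 600, 628, 623 and 627, which gave 0.132%, 0.0790%, 0.0204% and 0.00952% of all cells. Endothelial cell (c1) numbered 2, 6, 4 and 2 cells there, or 0.0292%, 0.0948%, 0.0407% and 0.0190%. Both clusters had 0 of 2553 cells in library 632. A count of 0 there leaves room for up to 0.118%, taken as 3 cells, and the exact 95% interval reaches 0.144%. For c2 the dissected shares lay above those counted in the vortexed libraries, but the interval of library 632 reaches above both of them. For c1 the groups overlapped.

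The difference between preparations was tested for each cluster by limma on the log2 odds of its share of all cells, fitted over all 37 clusters and adjusted over them. At an adjusted p below 0.05, limma called 0 of the 37 clusters (0%) and so 0 of the 5 vascular ones. At an unadjusted p below 0.05 and with the dissected libraries higher, limma gave 5 of 37 clusters (13.5%), and 3 of these were vascular. Shares in the dissected libraries lay wholly above the vortexed ones in 11 of 37 clusters (29.7%), c2, c4 and c5 among them. In 0 of 37 they lay wholly below. For c2 this takes the count of 0 in library 632 as a share of 0. Stromal-Microvascular (c4) gave a log2 odds ratio of 3.08 (SE 0.78, limma adjusted p = 0.114). Endothelial cell (c2) followed with 2.51 (SE 0.67, limma adjusted p = 0.114), and c4 and c2 had the lowest 2 p-values of the 37 clusters. Endothelial (c5) gave 2.12 (SE 0.91, limma adjusted p = 0.361) and Endothelial cell (c1) 1.14 (SE 0.77, limma adjusted p = 0.511). Endothelial cell (c3) gave -0.075, with a 95% interval from -2.12 to 1.97, so differences of about that size in either direction were not detectable. The median log2 odds ratio was 2.12 over the 5 vascular clusters and 0.25 over all 37, and 4 of the 5 were above 0, against 20 of the 37. Without library 600, c2 fell below the minimum of 10 cells and was not tested. Of the other 4 vascular clusters, 1 then had an unadjusted limma p below 0.05, and their smallest limma adjusted p was 0.897.

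**Figure D2:**
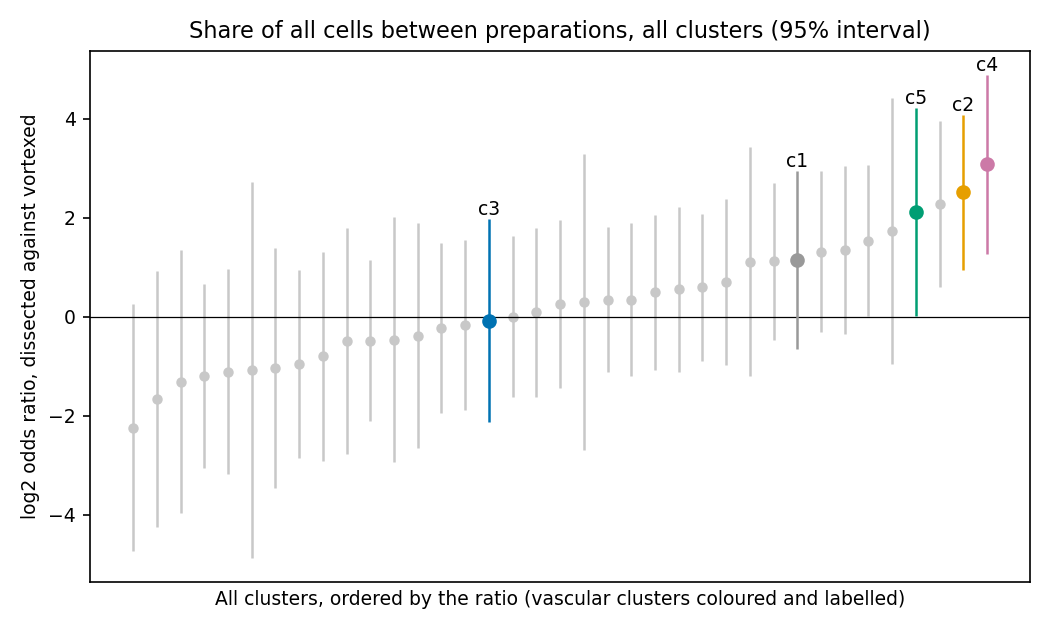
Log2 odds ratio of the share of all cells, dissected against vortexed libraries, for all 37 clusters in rising order, with 95% intervals from limma; the 5 vascular clusters are coloured and labelled. Stromal-Microvascular (c4) at 3.08 and Endothelial cell (c2) at 2.51 are at the right end, while Endothelial cell (c3) at -0.075 lies near 0.

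Within the vascular cells, the cluster that led changed from library to library. Endothelial cell (c3) made up 43.3% (31.2 to 56.0) of the vascular cells of library 628, 53.7% (37.4 to 69.3) of library 623 and 73.5% (58.9 to 85.1) of library 627, and was the largest cluster in each. In library 600 it made up 4.58% (1.70 to 9.70). There Endothelial (c5) led with 47.3% (38.5 to 56.2) and Stromal-Microvascular (c4) followed with 39.7% (31.3 to 48.6). In library 632, c5 held 4 of the 8 vascular cells, c3 held 3 and c4 held 1, too few to order them.

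As a mean over libraries, c3 made up 42.5% ± 25.2 (SD, n = 5) of the vascular cells, c5 28.5% ± 18.4, c4 19.9% ± 12.8, c1 4.86% ± 4.36 and c2 4.25% ± 3.18. The SD over libraries was larger than the gaps between neighbours in this order, except between c4 and c1. Without library 600 the mean of c3 was 52.0% and that of c4 14.9%.

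The ratio of c3 to c5 separated library 600 from the rest more than it separated the preparations. Library 600 had 10.3 c5 cells for each c3 cell. Libraries 628, 623 and 627 had 2.64, 3.67 and 5.14 c3 cells for each c5 cell, and library 632 had 0.750. Dissected library 628 was therefore closer to the vortexed libraries 623 and 627 than to dissected library 600. The ratio of c4 to c5 was 0.839 in library 600, 1.45 in library 628, 1.17 in library 623, 0.429 in library 627 and 0.250 in library 632, where it rests on 1 and 4 cells. On this ratio library 600 lay among the others.

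Between preparations, c4 made up 31.8% ± 11.2 (n = 2) of the vascular cells in dissected and 11.9% ± 5.50 (n = 3) in vortexed libraries, without overlap (exact permutation p = 0.1, adjusted p = 0.225 over 9 comparisons). The shares of c2 did not overlap either, with 7.17% ± 0.419 against 2.31% ± 2.45 (exact permutation p = 0.2, adjusted p = 0.36). Library 632 entered with 0 of 8 vascular cells, for which the exact interval reaches 36.9%. Values overlapped for c3 (23.9% ± 27.4 against 54.9% ± 18.0), c5 (31.9% ± 21.9 against 26.3% ± 20.5) and c1 (5.24% ± 5.25 against 4.61% ± 4.90), with exact permutation p = 0.3, 0.8 and 0.9. The c5 difference of 5.57 points was -9.89 without library 600, and the c1 difference of 0.628 points was -3.09 without library 628. The c3 difference, -30.9 points, was -11.6 without library 600. The c4 difference, 19.9 points, was 12.0 without library 600.

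**Figure D3:**
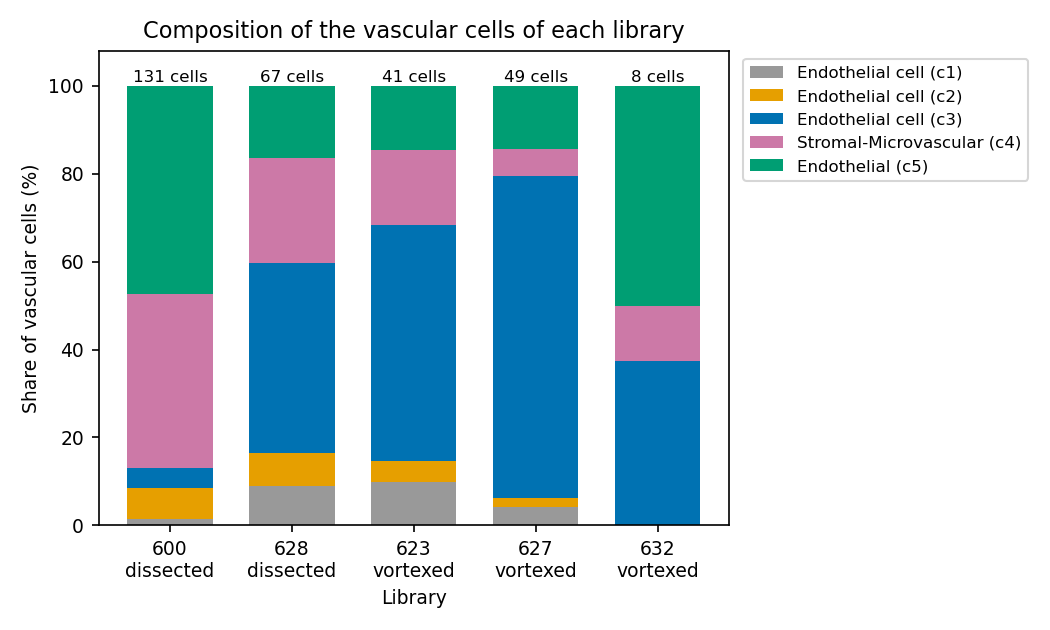
Composition of the vascular cells of each library (percent, stacked to 100), with the number of vascular cells above each bar. Library 600 is mostly c5 and c4, libraries 628, 623 and 627 are led by c3, and the bar of library 632 rests on 8 cells.

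Vascular cells were set against the 2 populations they adjoin in the tissue, as ratios that do not depend on the other cells of a library. Podocytes (c20), the epithelial cells that wrap the glomerular capillaries, outnumbered vascular cells in all 5 libraries. They did so 9.26-fold in library 600, 2.13-fold in library 628, 6.12-fold in each of libraries 623 and 627 and 13.6-fold in library 632. The dissected libraries enclosed the values of 623 and 627, and the mean log2 ratio of vascular cells to podocytes was -2.15 ± 1.50 in dissected and -3.00 ± 0.67 in vortexed libraries (exact permutation p = 0.6, adjusted p = 0.771). This difference, 0.85, was -0.21 without library 628. Library 600 was rich in both cell types, with 1213 podocytes.

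Stroma, the 5 clusters with fibroblast or interstitial names, was 5.53-fold as numerous as vascular cells in library 600 and 13.1-fold in library 628. In the vortexed libraries it was 39.4-fold (623), 38.7-fold (627) and 97.9-fold (632) as numerous. The groups did not overlap. The mean log2 ratio of vascular to stromal cells was -3.09 ± 0.88 in dissected and -5.73 ± 0.77 in vortexed libraries. This difference of 2.64 (exact permutation p = 0.1, adjusted p = 0.225) was 2.02 without library 600. Stroma itself was a smaller share of the dissected libraries, with 724 of 6839 cells in 600 and 877 of 6329 in 628. It numbered 1614 of 9816 in 623, 1894 of 10502 in 627 and 783 of 2553 in 632. Both parts of the ratio therefore enter the difference, and the part of each was not tested.

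In the authors' UMAP embedding, a map in which nearby cells have like profiles and whose units are arbitrary, nearly all vascular cells formed 1 group. These positions come from the same data as the clusters and are described without tests. For 284 of the 296 cells (95.9%), at least 8 of the 15 nearest cells of the 5 libraries were vascular. That held for 78 of 79 c4 cells, 17 of 17 c2 cells, 93 of 96 c3 cells, 86 of 90 c5 cells and 10 of 14 c1 cells. By library it was 128 of 131 cells in 600, 64 of 67 in 628, 38 of 41 in 623, 49 of 49 in 627 and 5 of 8 in 632. The cells with a vascular majority around them included only 12 with another name.

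The centres of the 5 clusters, taken as median positions, were closer to each other than to any other cluster. Centres of c1 and c2 lay 0.361 units apart, less than the median distance of their own cells from the centre (0.497 and 0.455), although the gap was 1.54 without library 628 and 1.31 without library 627. Stromal-Microvascular (c4) lay 0.833 from c2 and 1.44 from c3, and c5 lay 2.01 from c3 and 2.82 from c4, the widest gap among the 5. The nearest centre outside the vascular clusters was Collecting Duct (c13), 4.29 units from c5, 5.61 from c1, 5.91 from c2 and 6.71 from c4, and for c3 it was Monocyte (c34) at 5.93. No stromal cluster was among the 3 nearest non-vascular centres of c4.

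**Figure D4:**
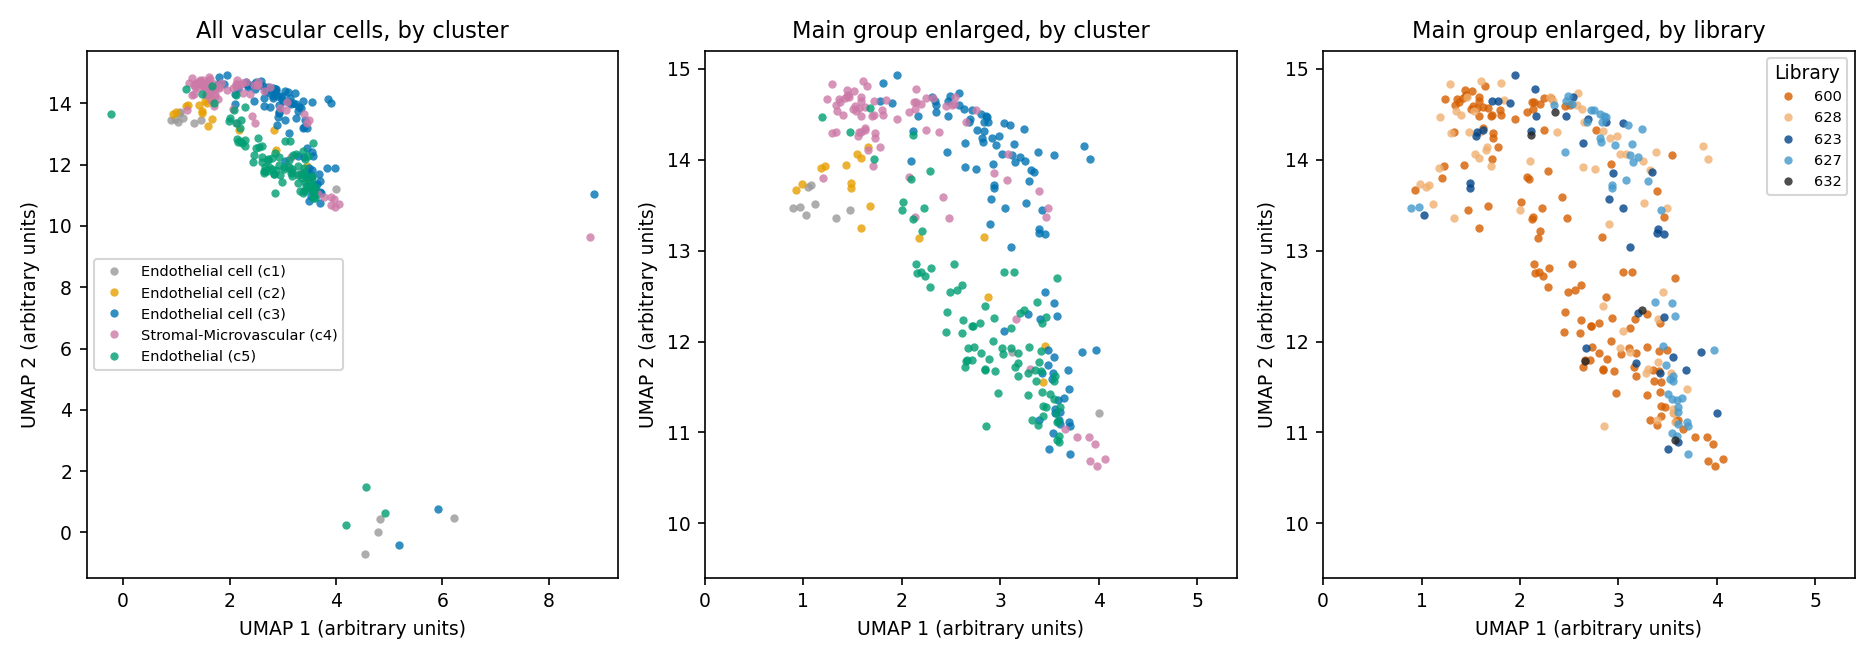
Positions of the 296 vascular cells in the authors' embedding (arbitrary units), coloured by cluster over the full range (left) and in the main group (middle), and by library in the main group (right). Most cells form 1 arc with c4, c2 and c1 at its upper end, c5 at its lower end and c3 along its right edge, and cells of several libraries lie at both ends.

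Centres could be set per library for c3, c4 and c5. The c3 centre of dissected library 628 lay 0.274 units from that of vortexed library 623 and 0.103 from that of vortexed library 627, and 623 and 627 were 0.300 apart. For the 2 dissected libraries, 600 and 628, the c4 centres were 0.227 apart and the c5 centres 0.383 apart. The positions come from an integration of the libraries, and c1 and c2 had too few cells per library for this.

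The main group was stretched between the centres of c4 and c5, and both ends held cells of all 5 libraries. Each of the 284 cells was counted to the end whose centre was nearer, so cells midway along the arc are included. Of them, 155 were nearer to the c4 centre and 129 to the c5 centre. The part nearer to c5 was 53.1% (44.1 to 62.0) in library 600, 31.3% (20.2 to 44.1) in library 628, 42.1% (26.3 to 59.2) in library 623, 44.9% (30.7 to 59.8) in library 627 and 3 of 5 cells in library 632. The intervals of libraries 600 and 628 met at 44.1 without overlap, and those of all other pairs overlapped.

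The names at each end differed between libraries. Endothelial cell (c3) was counted at both, with 56 of its 93 cells in the main group nearer to c4 and 37 nearer to c5. At the c5 end, library 600 had 52 cells named c5 and 3 named c3. There library 628 had 7 and 10, library 623 had 5 and 10, and library 627 had 7 and 14. At the c4 end, library 600 had 42 cells named c4 and 3 named c3, against 14 and 18 in library 628, 7 and 12 in library 623 and 3 and 22 in library 627. In library 600 c3 was thus the minor name at both ends, and in the other 3 libraries it was the major one. This order follows largely from the cell counts of the libraries. Library 600 held 6 c3 cells against 52 named c4 and 62 named c5, and in the other 3 libraries c3 was the largest vascular cluster. Of the c4 cells in the main group, 12 of 78 lay at the c5 end, 10 of them from library 600.

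Among vascular cells alone, cells of each cluster had their own name more often around them than its share of the other vascular cells. Of the 15 nearest vascular cells, 64.0% had the same name for c5, 60.3% for c4 and 59.4% for c3, while these names made up 30.2%, 26.4% and 32.2% of the other vascular cells. For the small clusters the own name was the minority of the nearest cells, but as a ratio it was further above its share. It made up 31.9% for c1, against 4.41% of the other vascular cells, and 27.1% for c2, against 5.42%. With the 50 nearest vascular cells it was 10.3% for c1 and 15.8% for c2, which hold only 14 and 17 cells. The rest of the c2 neighbours were mainly c5 (26.3%) and c4 (23.9%), each below its share of the other vascular cells (30.5% and 26.8%), and c1 neighbours included c2 at 26.2%, against 5.76%. Cells of c4 had c3 as their most frequent other vascular neighbour (24.6%), and c5 made up 10.5%. Both were below their shares of the other vascular cells (32.5% and 30.5%).

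**Figure D5:**
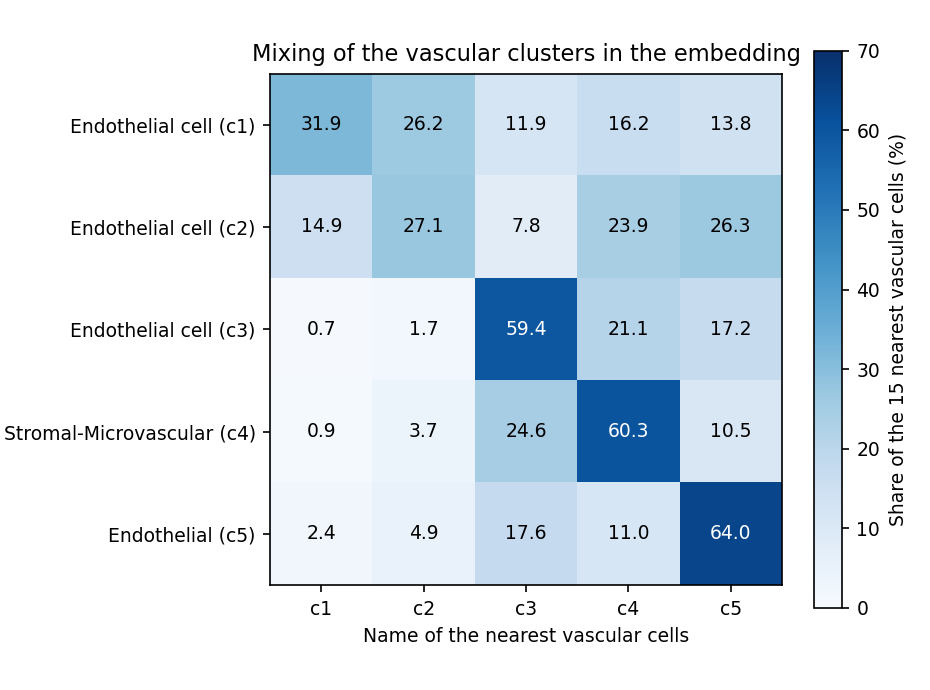
For the cells of each cluster (rows), the share of their 15 nearest vascular cells that carried each name (columns, percent), over all 5 libraries. The diagonal is highest for c5, c4 and c3 (64.0, 60.3 and 59.4), and it is 31.9 for c1 and 27.1 for c2, which make up only 4.41% and 5.42% of the other vascular cells.

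Searched within a library, the 15 nearest cells of another name were mostly vascular too. Where a library held 10 or more cells of a cluster, the vascular share of these neighbours was 96.9% ± 0.929 for c4 (n = 2), 79.4% ± 7.92 for c3 (n = 3) and 74.6% ± 3.44 for c5 (n = 2). Stroma made up 0% of the neighbours of c4 in both libraries, 600 and 628, and 1.73% ± 1.84 of those of c5. Podocytes made up 10.4% of the neighbours of c5 in library 600 and 4.24% in library 628, against 2.18% and 0.417% of those of c4. With 50 neighbours the order turned, with 4.61% and 1.27% for c5 against 23.7% and 2% for c4. Podocytes were 1213 of the 6839 cells of library 600 and 143 of the 6329 cells of library 628. With 15 neighbours, the podocyte share for c5 lay below that of all cells in library 600 and above it in library 628. The part of the number of podocytes in the neighbour shares was not tested. For c3, library 628 stood apart, since clusters named by a cell cycle phase made up 19.8% of its neighbours, against 0% in library 623 and 1.11% in library 627. With 50 neighbours these shares were 11.1%, 6.45% and 4.89%. M-phase (c27), G2-M phase (c28) and G2-M phase (c29) held 232, 260 and 375 of the 6329 cells of library 628. They held 299, 446 and 820 of 9816 in library 623 and 513, 731 and 1636 of 10502 in library 627. In library 628 the share with 15 neighbours lay above that of all its cells, and with 50 neighbours below it. In libraries 623 and 627 both lay below. This was not tested. A cell can be counted as neighbour of several c3 cells. Only 5 M-phase (c27) cells and 1 G2-M phase (c29) cell of library 628 had a vascular majority among their 15 nearest. Fewer than 15 vascular cells of another name (13) were present in library 627, which limits its vascular share for c3 to 86.7%.

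The remaining 12 vascular cells had no vascular cell among their 15 nearest and lay between 3.64 and 14.5 units from the centre of their cluster. They were 4 of the 14 c1 cells, 4 c5 cells, 3 c3 cells and 1 c4 cell. Libraries 600, 628, 623 and 632 supplied 3 each, which is 3 of the 8 vascular cells of library 632. The only c4 cell of library 632 was among them. The names around these cells were led by NPC (c25), the nephron progenitors, with 14.4% of their nearest cells. Fibroblast (c26) followed with 12.2% and Proximal tubule (c18) with 10.0%. These clusters were themselves large, and the shares were not tested against their size. In libraries 600, 628, 623, 627 and 632, NPC (c25) held 52, 851, 2434, 926 and 30 cells. Fibroblast (c26) held 93, 236, 615, 764 and 71 there, and Proximal tubule (c18) 598, 368, 610, 1303 and 299. A c5 cell of library 600 was surrounded by podocytes in 15 of 15 neighbours.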

How the data were processed

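Single-cell libraries (10x Genomics 3' version 3) were made by the authors from rhesus fetal kidney, per the labels' protocols. The submitters' processing notes list Seurat, Cell Ranger 6.0.1 and hg19 without saying what each was used for, and how cells were filtered, doublets treated and clusters made is not given in the sources used here. Each cell has, in the deposited table, a library, a species, the authors' cluster name and a position in their UMAP embedding, an arbitrary score. Names and positions come from an integration with other libraries, per the series' design text. Cells were used where the library name matched a sample title. The 11 other library names (58227 cells), human ones included, were not analysed here, so no species balance is given.

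Cells were counted per cluster and library (Python 3.11.15, pandas 2.3.3). Log2 odds of each share, with 0.5 cells added, were compared by limma 3.58.1 in R 4.3.3 over all 37 clusters, which each held at least 10 cells. Single shares and log2 ratios of cells were compared by an exact two-sided permutation test. A count of 0 was drawn at the share of 3 cells, but it entered means, comparisons of overlap and permutation tests as 0. Neighbours were found with scikit-learn 1.9.0. The limma step was run on simulated data with changes larger than any seen here, so its power at the observed sizes was not shown. Members, comparisons and clusters named were chosen with earlier results of these data known. The 5 vascular clusters were all named, and other clusters as nearest centres, frequent neighbours or partners in a ratio. Surroundings with 8 or more vascular cells of 15, the ends of the main group and the cells apart were added after positions had been seen.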

Additional observations from a re-analysis of the deposited data

Results flagged for a closer look

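Endothelial (c5) made up 0.907% of the cells of library 600, and the gap from this library to the next, library 628 with 0.174%, was wider than Dixon's 95% limit for 5 values allows. All 5 libraries were taken as 1 group here, since the groups by preparation hold 2 and 3. Of 14 shares and ratios checked in this way, 1 stood out, and chance flags about 1 group in 20.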

How the results depend on the processing

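The count of clusters past an adjusted p of 0.05 was 0 under all 11 alternatives, and with 1 library left out it ranged from 0 to 0. Vascular and endothelial-named shares and the ratio to stroma kept their direction under every alternative run. With 1 library left out, the difference between preparations ranged from 0.659 to 1.52 points for the vascular share, from 0.453 to 0.802 for the endothelial names, from 2.02 to 3.26 (log2) for the ratio to stroma and from -0.21 to 1.90 for the ratio to podocytes. By share of vascular cells it ranged from -3.09 to 4.34 points for c1 (-1.68 without library 632), from 3.71 to 6.15 for c2, from -50.3 to -11.6 for c3, from 12.0 to 27.8 for c4 and from -9.89 to 21.0 for c5 (-0.270 without library 623 and -0.444 without 627). The log2 odds ratio of c3 ranged from -1.23 to 1.07 (without library 600), with 0.25 without 627. That of c2 depended on the number of cells added to each count. It was 2.06 with 1 cell added (limma adjusted p = 0.220) and 3.44 with 0.1 cells added (limma adjusted p = 0.0970). For c4 the values were 2.88 and 3.29. The number of vascular clusters with an unadjusted limma p below 0.05, 3 as reported, was 2 with 1 cell added, with the centred log-ratio, without library 623 or without 627. The exact permutation test of the same odds cannot go below p = 0.1. Without library 600 or 628, c2 or c1 respectively had under 10 cells and was not tested. Their smallest adjusted p ranged from 0.0877 (without library 632) to 0.897 (without 600).

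With 50 neighbours the vascular share of neighbours was 37.9% for c3, 77.9% for c4 and 62.8% for c5. By construction it could not exceed 38% in library 623 and 26% in library 627 for c3, since these hold only 19 and 13 vascular cells of another name. With 5 neighbours it was 91.5% for c3, and with all 5 libraries searched 88.7% for c3 and 81.6% for c5. Mean in place of median positions put c1 4.09 from c2, 3.71 from c3 and 4.59 from c4, since 4 of its 14 cells lie apart. With 1 library left out, the distance of c1 ranged from 0.361 to 1.54 to c2, from 1.50 to 2.01 to c3, from 1.07 to 2.33 to c4 and from 0.421 to 2.73 to c5. No paired analysis was possible because the library numbers are not shared between the groups. Few cells limit the rest: c1 and c2 hold 14 and 17, and library 632 has 8 vascular cells.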

Other observations

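The 12 cells with another name and a vascular majority among their 15 nearest cells came from the dissected libraries, 8 from library 628 and 4 from library 600. Of them, 6 were named M-phase (c27), a cluster named for dividing cells, 5 of these from library 628. Podocyte (c20) named 3, and G2-M phase (c29), Cap mesenchyme (c30) and NPC (c25) named 1 each. With 5 neighbours there were 11 such cells and with 50 there were 12, again with 0 from the vortexed libraries, which held 98 of the 296 vascular cells between them.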
